A study of Mus musculus with 16 samples.

Results

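The proteasome is the protease complex that degrades ubiquitin-tagged proteins. Its barrel, the 20S core, is built from stacked rings of alpha and beta subunits, and the beta subunits Psmb5, Psmb6 and Psmb7 carry the cutting sites. The 19S cap docks on the barrel, where non-ATPase subunits bind and trim ubiquitin and a ring of ATPases (the Psmc proteins) unfolds the substrate. In muscle this system degrades much of the contractile protein that is lost during fasting and atrophy. This account follows 46 listed mouse genes of the proteasome: 7 alpha subunits, 7 standard beta subunits, the 3 immune beta subunits Psmb8 to Psmb10, 6 ATPases and 14 other subunits of the cap, 4 activator genes (Psme1 to Psme4) and 5 assembly genes. Probes were assigned to them through the RefSeq accession given for each probe. A probe was found for 45 of the 46 genes, all 45 passed the filter on dim probes, and they stand among 21281 genes tested. Of these 21281, 14148 had a symbol and the rest were unnamed probe targets. Psme2, 1 of the activators, had no probe under its own accession. Genes above background in any 1 group pass the filter, and 43 of the 45 were above background on all 16 arrays, Psma6 and Psmb8 on 15.

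Quadriceps RNA of male mice, 8 weeks old, was measured in 4 groups: mFoxO-TKO mice after 24 h without food, WT mice after 24 h without food, mFoxO-TKO mice fed ad libitum and WT mice fed ad libitum. The diet was CE-2 chow, and food was withdrawn with the mice caged singly. In mFoxO-TKO mice (mFoxO1,3,4-/-) a Cre recombinase under the human α-actin (HSA) promoter deletes FoxO1, FoxO3 and FoxO4 in skeletal muscle, so other cells of the tissue keep these transcription factors. Each group had 4 arrays, and nothing in the labels says that each array is a separate mouse, so p-values measure only the spread between these samples, which may be technical. The design asks how fasting changed proteasome transcripts and how much of that change depended on FoxO.

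Values below are log2 signals relative to the 75th percentile of their own array, so they compare arrays for 1 gene and not 1 gene with another. A difference is given on the log2 scale ± its standard error in the limma model (n = 4 arrays per group unless stated), and a gene passed at a Benjamini-Hochberg adjusted p under 0.05 over all genes tested. As measured over the whole tissue, fewer cells of a type and less RNA per cell cannot be told apart. Foxo1 was lower in mFoxO-TKO muscle in fasted mice (-3.40 ± 0.23, adjusted p = 3.55e-07) and in fed mice (-1.76 ± 0.23, adjusted p = 0.00117). A second Foxo1 probe had means of 1.81 in fasted mFoxO-TKO, 4.55 in fasted WT, 0.70 in fed mFoxO-TKO and 2.11 in fed WT. Neither of 2 kept Foxo4 probes cleared background on the 8 mFoxO-TKO arrays. The brighter was at least 5.86-fold lower in fasted and at least 6.41-fold lower in fed mFoxO-TKO mice. For the other probe these bounds were 4.19-fold and 4.89-fold. The Foxo3 probe differed by -0.75 ± 0.26 in fasted and 0.73 ± 0.26 in fed mice without passing (adjusted p = 0.0945 and 0.295). The sources used here do not place the Foxo1, Foxo3 and Foxo4 probes inside or outside the deleted segments. None of 8 skeletal muscle markers passed in limma in any of the 5 comparisons (1 at an unadjusted p under 0.05, for the knockout in fasted mice).

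Some arrays stood apart at single spots. Fasted mFoxO-TKO replicate 1, the array with the lowest share of spots above background (45.0%, against 45.1% to 75.2% on the others), was low for Psma6, Psma7, Psmb7 and Psmd6 and high for Psmd11 and Psmd12. Fed WT replicate 3 was low for Psmb5 and Psmc6. Spots marked as uneven were left out, so that n = 3 for Psma5 and Psmc3 in fasted mFoxO-TKO (without replicate 1), for Psmd1 in fasted mFoxO-TKO (without replicate 3) and for Psma6, Psmc6 and Psmg3 in fasted WT (without replicate 1). Replicates 1 and 2 of each group lay on slide 1 and replicates 3 and 4 on slide 2, and each group filled 1 array column, so array position and group cannot be told apart.

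**Figure D1:**
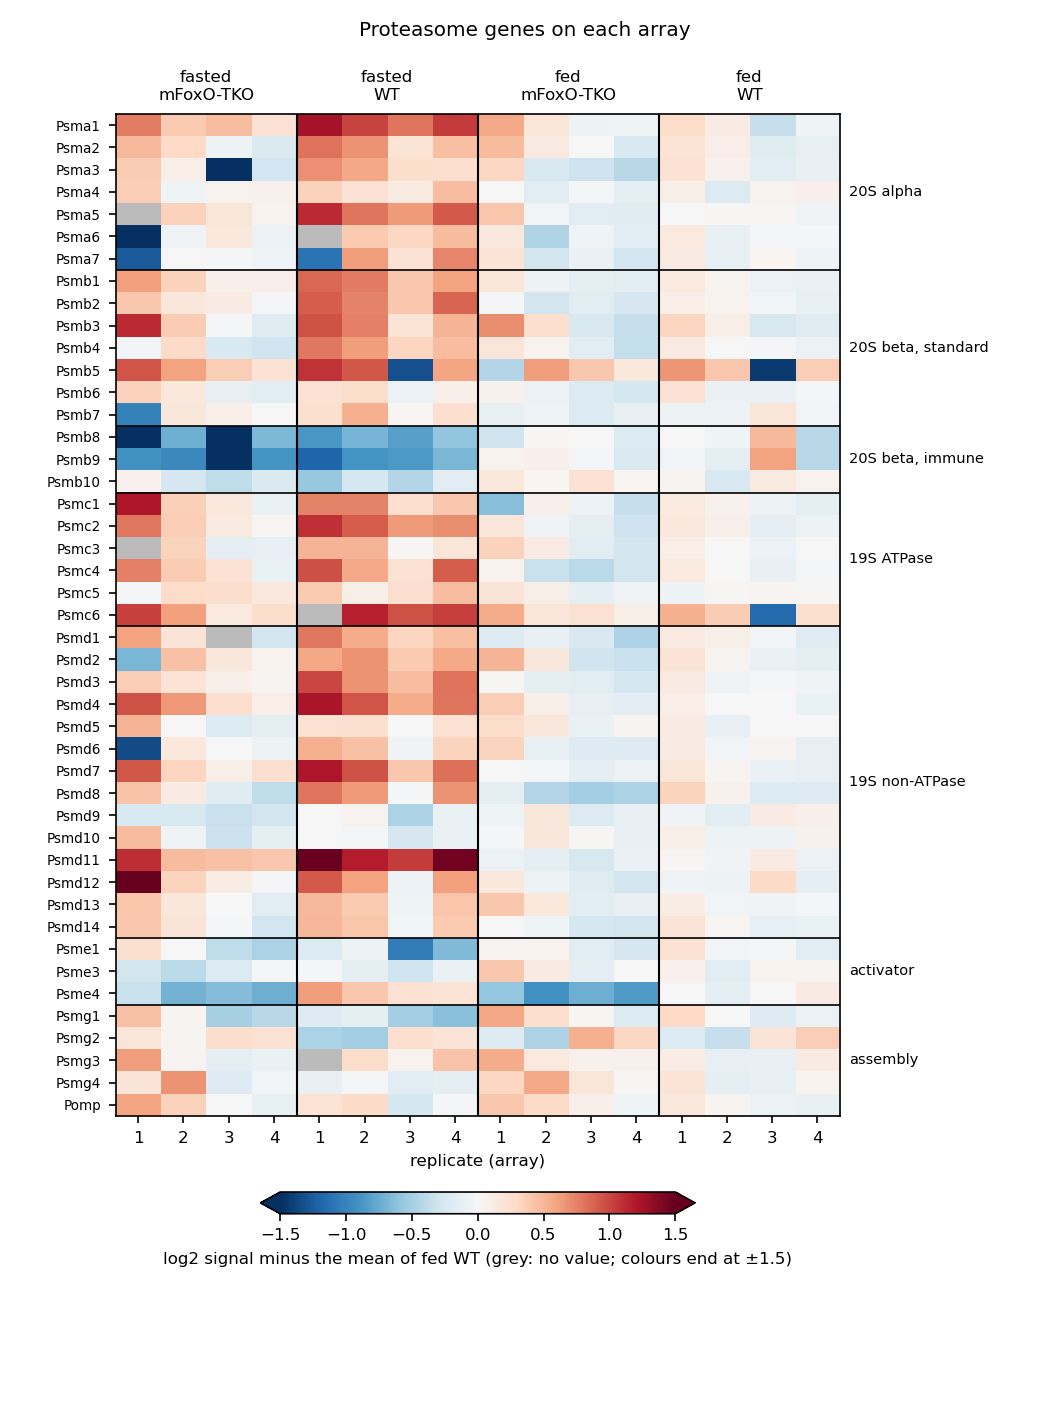
Log2 signal of 45 proteasome genes (rows, by class) on 16 arrays (columns, by group), minus the mean of the 4 fed WT arrays for each gene. Red is higher and blue lower than fed WT, grey marks a value left out as uneven, and colours end at 1.5 in either direction. Most core and cap rows are reddest in fasted WT, the rows of Psmb8 and Psmb9 are blue in both fasted groups, and the row of Psme4 is blue in both mFoxO-TKO groups.

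The promoters of 5 members are shown because they belong to the results that follow: Psmd11 and Psma1 had the lowest adjusted p among the members that rose in fasted WT muscle, Psmb5 is known for an antioxidant response element, Psmb9 is an immune subunit that fell, and Psme4 was lower in knockout muscle. Each sequence is the 250 bases before the gene's start from RefSeq (GRCm38.p6), read 5′ to 3′ on the strand of the gene, with any match to 4 searched motifs in capitals. The stretches are chr11:80428365-80428614 (plus strand) for Psmd11, chr7:114276117-114276366 (minus strand) for Psma1, chr14:54617996-54618245 (minus strand) for Psmb5, chr17:34187331-34187580 (minus strand) for Psmb9 and chr11:30771525-30771774 (plus strand) for Psme4.
Psmd11: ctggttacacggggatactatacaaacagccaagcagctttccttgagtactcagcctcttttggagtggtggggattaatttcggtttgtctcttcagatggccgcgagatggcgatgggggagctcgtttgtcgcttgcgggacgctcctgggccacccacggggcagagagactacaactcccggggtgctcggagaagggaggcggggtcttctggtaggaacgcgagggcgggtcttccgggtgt
Psma1: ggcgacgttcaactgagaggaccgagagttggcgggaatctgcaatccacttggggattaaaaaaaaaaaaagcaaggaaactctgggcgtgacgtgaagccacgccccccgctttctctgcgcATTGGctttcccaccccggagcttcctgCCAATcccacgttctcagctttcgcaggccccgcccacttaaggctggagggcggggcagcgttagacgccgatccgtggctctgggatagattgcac
Psmb5: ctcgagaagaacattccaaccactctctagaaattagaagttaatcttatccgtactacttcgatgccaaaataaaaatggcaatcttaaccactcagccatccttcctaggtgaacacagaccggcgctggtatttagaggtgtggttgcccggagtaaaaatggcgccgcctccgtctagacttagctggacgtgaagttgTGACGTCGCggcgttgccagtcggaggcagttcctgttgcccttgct
Psmb9: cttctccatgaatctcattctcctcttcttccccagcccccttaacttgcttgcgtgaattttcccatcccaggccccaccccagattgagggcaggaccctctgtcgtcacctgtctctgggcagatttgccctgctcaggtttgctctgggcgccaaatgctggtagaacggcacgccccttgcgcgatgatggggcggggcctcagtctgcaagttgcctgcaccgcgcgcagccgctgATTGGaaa
Psme4: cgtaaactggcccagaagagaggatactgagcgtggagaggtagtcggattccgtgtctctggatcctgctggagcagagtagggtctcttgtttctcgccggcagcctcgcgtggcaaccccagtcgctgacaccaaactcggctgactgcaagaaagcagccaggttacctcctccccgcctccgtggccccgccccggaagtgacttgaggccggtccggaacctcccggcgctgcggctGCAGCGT
The motifs were TGACNNNGC (core of the antioxidant response element, read by Nrf1 and Nrf2 with small Maf proteins), GTAAACA (FoxO element), CCAAT (NF-Y box) and GAAA followed after any 2 bases by GAAA (interferon-stimulated element), on both strands and with overlaps allowed, in windows from 250 bases before to 50 after each start. Windows were found for 39 of the 46 genes. The FoxO letters were in 0 of the 39, against 4.05% of 27025 genes with a window. The antioxidant core was in 6 of 39 (15.4%, against 14% of all genes): Psmb5, Psmb6, Psmc6, Psmd9, Psmd12 and Psme4. In Psmb5 it begins at base -47, counted back from the start, and is the stretch in capitals. In Psme4 it begins at base -7 and runs past the start, so only its first 7 bases are printed. The NF-Y box was in 13 of 39 (33.3%, against 41.1%), among them 5 of the 7 alpha subunit genes. Psma1 holds it at bases -126 and -98, and Psmb9 at base -8. The interferon letters were in 5 of 39 (12.8%, against 3.99%) and in none of the 3 immune subunit genes. No match to any of the 4 motifs lies in the Psmd11 stretch. These matches are letters in a window and show no binding.

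Fasting raised part of the standard core and cap in WT muscle and lowered immune subunits in both genotypes. For Psmb8 in WT the call depended on the processing. In mFoxO-TKO mice 3 of the 45 members passed, with Psmd11 higher and Psmb8 and Psmb9 lower in fasted than in fed mice, where 8.64% of all genes tested passed (4.61% higher and 4.03% lower). In WT mice 13 of the 45 members were higher and 2 lower, where 21.2% of all genes passed (11.8% higher and 9.35% lower). All 13 belong to the 34 standard core and cap genes, and both falls were Psmb8 and Psmb9. Differences were positive for 24 of those 34 genes in mFoxO-TKO and for 32 in WT. The median fasting change of the members was 0.13 in mFoxO-TKO and 0.32 in WT mice, against 0.07 and 0.03 over all genes. Without the filter on dim probes these medians were 0.13 and 0.32 for the members and 0.12 and 0.25 over all genes, so the members lay 0.01 above all genes in mFoxO-TKO and 0.07 above them in WT. Without overlap between the fasted and fed arrays, 4 members were higher and 3 lower in mFoxO-TKO (all genes 8.53% and 5.67%), and 20 were higher and 2 lower in WT (all genes 16.2% and 12.7%).

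These counts depended on the processing. Counts over all genes also changed with several of the settings below (last section), so a larger member count alone is not particular to the members. With the authors' scores 9 members rose and 3 fell in mFoxO-TKO, and 12 rose and 5 fell in WT. Those scores cover fewer spots and 40 of the 45 members, so these counts are not like for like. With a robust fit, chosen after seeing the data, 6 rose and 4 fell in mFoxO-TKO, and 26 rose and 3 fell in WT. With slide as a block 5 members rose and 2 fell in mFoxO-TKO and 18 rose and 5 fell in WT muscle. With the replicate number as a block 11 members passed in mFoxO-TKO and 23 in WT. Within slide 1, with 2 arrays per group, 0 members passed in mFoxO-TKO and Psmd11 alone passed in WT. Within slide 2, 0 members passed in mFoxO-TKO, and 12 rose and 2 fell in WT. The 2 that fell there were other members than Psmb8 and Psmb9 (limma adjusted p = 0.236 and 0.142). The member median within slides 1 and 2 was 0.20 and 0.11 in mFoxO-TKO, and 0.47 and 0.26 in WT.

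**Figure D2:**
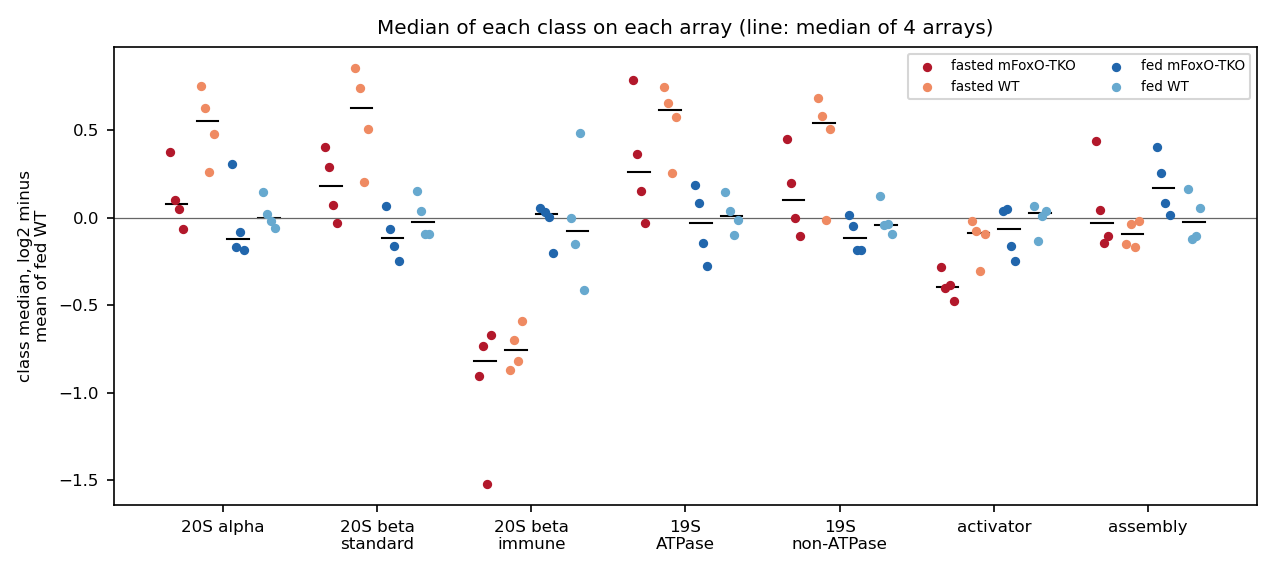
Median over the genes of each proteasome class on each of the 16 arrays, as the log2 difference of each gene from its fed WT mean (points: arrays, line: median of 4 arrays). The fasted WT arrays lie between 0.26 and 0.75 for the alpha subunits, the immune subunits lie below 0 on all 8 fasted arrays, and the assembly genes lie between -0.17 and -0.02 in fasted WT.

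Alpha subunits form the outer rings and the gate of the core. In mFoxO-TKO 0 of 7 passed in limma (0 at an unadjusted p under 0.05, 4 positive), and in WT Psma1 and Psma5 passed with all 7 differences positive. Psma1 had 6.01, 5.64, 5.70 and 5.46 in fasted mFoxO-TKO, 6.49, 6.26, 6.04 and 6.30 in fasted WT, 5.82, 5.43, 5.16 and 5.18 in fed mFoxO-TKO, and 5.52, 5.37, 4.90 and 5.18 in fed WT muscle. The fasted WT arrays were all above the other 12. Fasting changed Psma1 by 0.31 ± 0.18 in mFoxO-TKO (adjusted p = 0.347) and by 1.03 ± 0.18 in WT mice (2.04-fold, adjusted p = 0.00082). Psma5 had 5.14, 4.98 and 4.85 in fasted mFoxO-TKO, 5.92, 5.60, 5.44 and 5.71 in fasted WT, 5.22, 4.75, 4.63 and 4.61 in fed mFoxO-TKO, and 4.81, 4.82, 4.82 and 4.75 in fed WT muscle. Again no fasted WT array overlapped the other groups. The change was 0.19 ± 0.16 in mFoxO-TKO (adjusted p = 0.545) and 0.87 ± 0.15 in WT mice (adjusted p = 0.000937). The other alpha subunits had WT differences from 0.12 (Psma7) to 0.54 (Psma2, adjusted p = 0.0616). The Psma7 value includes a low fasted WT replicate 1, at 4.35 beside 6.09, 5.68 and 6.20 on replicates 2 to 4. For Psma4 the brightest probe gave 0.29 (adjusted p = 0.13) and a second probe 0.51 (adjusted p = 0.0369). Psma6 had a value of -3.80 on fasted mFoxO-TKO replicate 1 beside 4.68 to 4.93 on the other 3 arrays of that group, so its standard errors were 1.40 to 1.51 for the 4 group comparisons and it could not be resolved. Psma3 was likewise low on 1 array, with 3.80 on fasted mFoxO-TKO replicate 3.

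Of the 7 standard beta subunits, 0 passed on fasting in mFoxO-TKO in limma (2 at an unadjusted p under 0.05), and Psmb1, Psmb2 and Psmb4, which have no cutting site, rose in WT. Psmb2 had 2.48, 2.24, 2.19 and 2.04 in fasted mFoxO-TKO, 2.98, 2.81, 2.48 and 2.94 in fasted WT, 2.04, 1.79, 1.91 and 1.82 in fed mFoxO-TKO, and 2.17, 2.12, 2.03 and 1.96 in fed WT muscle. The fasted arrays lay above the fed arrays within each genotype, by under 0.01 in mFoxO-TKO, where the lowest fasted and the highest fed array both rounded to 2.04. The fasted mFoxO-TKO arrays overlapped fed WT. The change in Psmb2 was 0.35 ± 0.14 in mFoxO-TKO (adjusted p = 0.136) and 0.73 ± 0.14 in WT (adjusted p = 0.00123). Psmb4 had 6.16, 6.49, 5.97 and 5.90 in fasted mFoxO-TKO, 6.99, 6.83, 6.53 and 6.67 in fasted WT, 6.39, 6.26, 6.04 and 5.84 in fed mFoxO-TKO, and 6.33, 6.20, 6.16 and 6.11 in fed WT muscle. Fasted and fed arrays were apart in WT and overlapped in mFoxO-TKO. Its change was -0.00 ± 0.16 in mFoxO-TKO (adjusted p = 1) and 0.56 ± 0.16 in WT (adjusted p = 0.0206, lost without any 1 of 3 arrays, fasted WT replicate 1 and fed WT replicates 3 and 4). Psmb1, named after its values were seen, changed by 0.33 ± 0.15 and 0.66 ± 0.15 in the same order (adjusted p = 0.208 and 0.00504), and Psmb3, also without a cutting site, by 0.23 ± 0.28 and 0.61 ± 0.28 without passing.

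The catalytic subunits themselves gave no call. Psmb5, which cuts after hydrophobic residues, had 7.72, 7.38, 7.14 and 6.99 in fasted mFoxO-TKO, 7.86, 7.70, 5.45 and 7.36 in fasted WT, 6.33, 7.40, 7.18 and 6.94 in fed mFoxO-TKO, and 7.44, 7.18, 5.34 and 7.14 in fed WT muscle. Replicate 3 was low in fasted and fed WT, and replicate 1 in fed mFoxO-TKO. Its changes were 0.35 ± 0.50 in mFoxO-TKO and 0.32 ± 0.50 in WT (adjusted p = 0.74 and 0.727), and a second probe gave 0.08 ± 0.18 and 0.28 ± 0.18. Psmb6, which cuts after acidic residues, had 7.09, 6.90, 6.62 and 6.57 in fasted mFoxO-TKO, 6.98, 7.0, 6.66 and 6.82 in fasted WT, 6.81, 6.66, 6.54 and 6.49 in fed mFoxO-TKO, and 6.96, 6.64, 6.64 and 6.73 in fed WT muscle. The 4 groups overlapped, with changes of 0.17 ± 0.14 in mFoxO-TKO and 0.12 ± 0.14 in WT (adjusted p = 0.537 and 0.63). Psmb7, which cuts after basic residues, had 4.09, 5.28, 5.18 and 5.11 in fasted mFoxO-TKO, 5.35, 5.64, 5.14 and 5.36 in fasted WT, 5.0, 5.04, 4.91 and 5.0 in fed mFoxO-TKO, and 5.03, 5.04, 5.29 and 5.07 in fed WT muscle. Fasted and fed arrays overlapped in each genotype. Its changes were -0.07 ± 0.21 in mFoxO-TKO and 0.26 ± 0.21 in WT (adjusted p = 0.885 and 0.434).

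Of the 6 ATPases of the cap, 0 passed in mFoxO-TKO in limma (3 at an unadjusted p under 0.05), and Psmc2, Psmc4 and Psmc6 rose in WT. All 6 differences were positive in both genotypes, with a median of 0.33 in mFoxO-TKO and 0.60 in WT. Psmc2 had 6.95, 6.54, 6.30 and 6.20 in fasted mFoxO-TKO, 7.26, 7.07, 6.81 and 6.86 in fasted WT, 6.35, 6.11, 6.02 and 5.86 in fed mFoxO-TKO, and 6.32, 6.24, 6.02 and 6.09 in fed WT muscle. Every fasted WT array exceeded both fed groups, and the fasted mFoxO-TKO arrays overlapped them. Its change was 0.41 ± 0.17 in mFoxO-TKO (adjusted p = 0.158) and 0.83 ± 0.17 in WT (adjusted p = 0.00258, and 0.44 and 0.79 by a second probe). Psmc4 had 4.91, 4.53, 4.37 and 4.06 in fasted mFoxO-TKO, 5.12, 4.72, 4.38 and 5.06 in fasted WT, 4.20, 3.82, 3.75 and 3.87 in fed mFoxO-TKO, and 4.29, 4.15, 4.04 and 4.13 in fed WT muscle. Fasted and fed arrays were apart in WT and overlapped in mFoxO-TKO. It changed by 0.56 ± 0.19 in mFoxO-TKO (adjusted p = 0.0891) and by 0.67 ± 0.19 in WT (adjusted p = 0.0206, lost without any 1 of 4 WT arrays, fasted replicates 1 and 4 and fed replicates 3 and 4). Psmc6 had 5.14, 4.74, 4.27 and 4.38 in fasted mFoxO-TKO, 5.28, 5.07 and 5.15 in fasted WT, 4.68, 4.30, 4.34 and 4.20 in fed mFoxO-TKO, and 4.65, 4.49, 2.96 and 4.36 in fed WT muscle. It differed by 0.25 ± 0.31 in mFoxO-TKO (adjusted p = 0.687). Its WT change of 1.05 ± 0.33 (2.07-fold, adjusted p = 0.0354) includes the low fed WT replicate 3, was 0.67 without it (adjusted p = 0.0493), and did not pass without any 1 of the 3 fasted WT arrays. At their brightest probes Psmc1, Psmc3 and Psmc5 differed by 0.65 ± 0.24, 0.02 ± 0.18 and 0.15 ± 0.12 in mFoxO-TKO. In WT they differed by 0.54 ± 0.24, 0.30 ± 0.17 and 0.30 ± 0.12, none passing in either genotype. A second Psmc3 probe had means of 5.85 in fasted mFoxO-TKO, 6.03 in fasted WT, 5.35 in fed mFoxO-TKO and 5.63 in fed WT. Its fasted arrays lay above the fed arrays within each genotype. A second Psmc1 probe had means of 4.34, 4.05, 3.63 and 4.00 in the same order, with overlap in each genotype.

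Of the 14 non-ATPase genes of the cap, Psmd11 rose in mFoxO-TKO, and Psmd11, Psmd4, Psmd7, Psmd3 and Psmd1 rose in WT. Psmd11, a structural subunit of the lid that joins it to the base, had 4.42, 3.79, 3.75 and 3.72 in fasted mFoxO-TKO, 4.80, 4.50, 4.36 and 4.77 in fasted WT, 3.23, 3.19, 3.08 and 3.22 in fed mFoxO-TKO, and 3.34, 3.26, 3.44 and 3.23 in fed WT muscle. All 8 fasted arrays lay above all 8 fed arrays, and 3 of the 4 fasted mFoxO-TKO arrays lay between the fed arrays and fasted WT, with replicate 1 inside the fasted WT range. Psmd11 rose by 0.74 ± 0.16 in mFoxO-TKO (1.67-fold, adjusted p = 0.00862) and by 1.29 ± 0.16 in WT (2.45-fold, adjusted p = 4.29e-05), or by 0.58 in mFoxO-TKO without fasted replicate 1 (adjusted p = 0.00843). Within slides 1 and 2 the values were 0.90 and 0.59 in mFoxO-TKO and 1.35 and 1.23 in WT. Psmd4, a ubiquitin receptor, had 7.27, 6.97, 6.57 and 6.41 in fasted mFoxO-TKO, 7.54, 7.26, 6.87 and 7.12 in fasted WT, 6.69, 6.41, 6.19 and 6.14 in fed mFoxO-TKO, and 6.41, 6.32, 6.32 and 6.22 in fed WT muscle. In WT the fasted arrays stood clear of the fed ones, and in mFoxO-TKO they overlapped. Its change was 0.45 ± 0.19 in mFoxO-TKO (adjusted p = 0.177) and 0.88 ± 0.19 in WT (adjusted p = 0.00396). Psmd7, the partner of the deubiquitinase Psmd14, had 5.63, 5.01, 4.79 and 4.94 in fasted mFoxO-TKO, 5.91, 5.65, 5.09 and 5.53 in fasted WT, 4.69, 4.66, 4.55 and 4.60 in fed mFoxO-TKO, and 4.88, 4.74, 4.59 and 4.57 in fed WT muscle. Fasted arrays lay above fed arrays within each genotype. Its change was 0.46 ± 0.19 in mFoxO-TKO (adjusted p = 0.151) and 0.85 ± 0.19 in WT (adjusted p = 0.00436). Psmd3 and Psmd1, scaffold subunits named here after their values were seen, changed in WT by 0.74 ± 0.13 and 0.53 ± 0.18 (adjusted p = 0.000978 and 0.0456, the second lost without any 1 of 12 arrays, of all 4 groups).

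The other cap genes did not pass. Psmd14 itself, which removes ubiquitin chains, differed by 0.32 ± 0.16 in WT (adjusted p = 0.193). The chaperones of cap assembly Psmd5, Psmd9 and Psmd10, which are not part of the finished particle, had WT differences of 0.18 ± 0.15, -0.13 ± 0.13 and -0.09 ± 0.15, none passing. The remaining 5 (Psmd2, Psmd6, Psmd8, Psmd12 and Psmd13) had WT differences from 0.31 to 0.55 without passing, although a second probe of Psmd12 passed at 0.72 ± 0.17 (adjusted p = 0.00638).

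**Figure D3:**
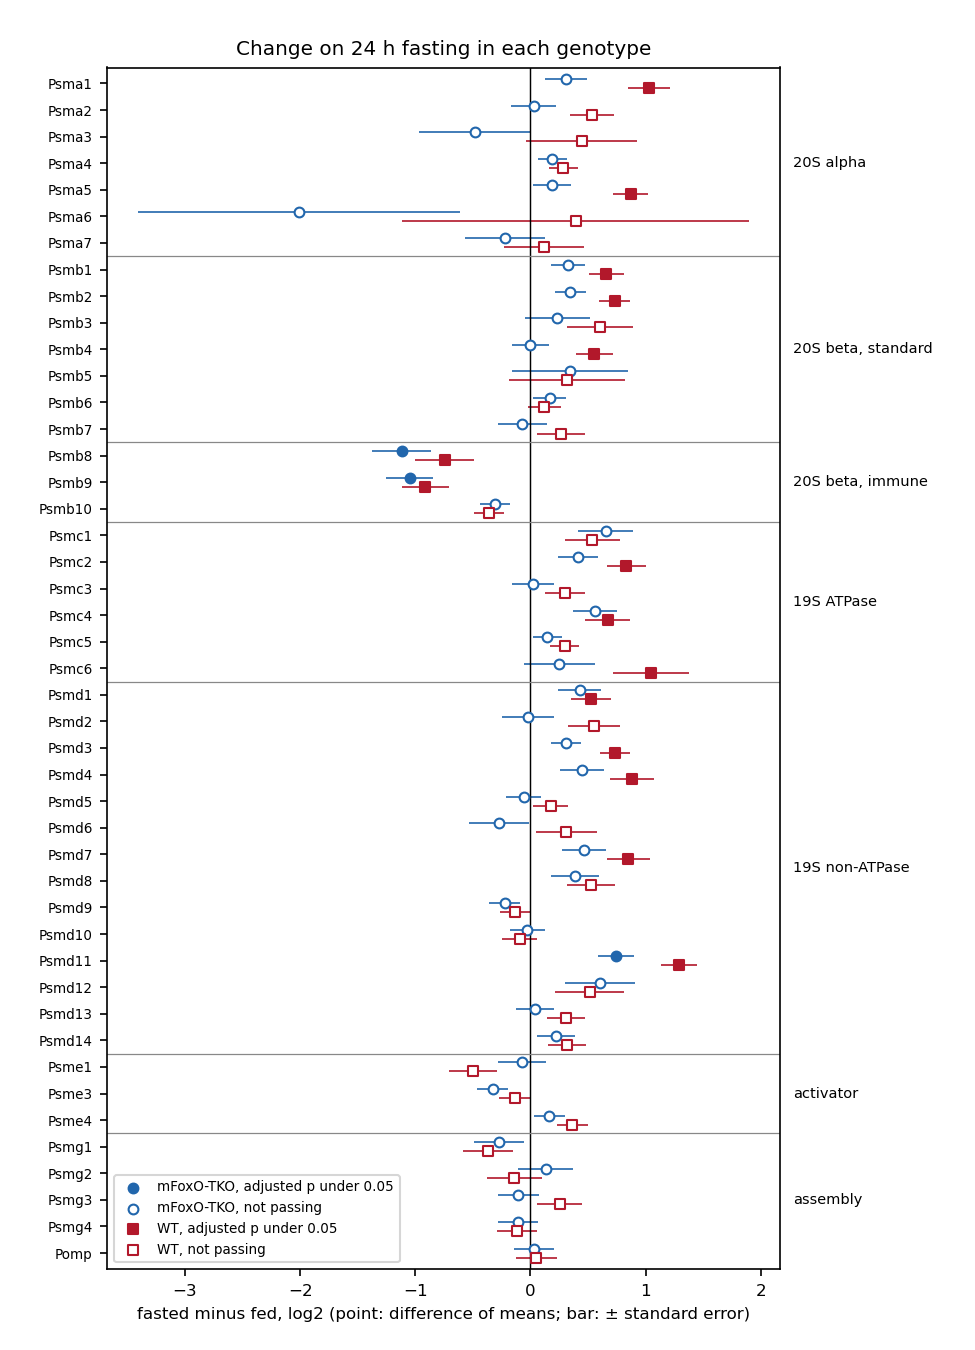
Fasted minus fed difference (log2) of each member in mFoxO-TKO (circles) and WT mice (squares), with standard errors, filled where the adjusted p was under 0.05. In mFoxO-TKO Psmd11 is filled to the right of 0 and Psmb8 and Psmb9 to the left, and in WT 13 core and cap genes are filled to the right and Psmb8 and Psmb9 to the left.

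Of the 3 immune subunits, Psmb8 and Psmb9 fell on fasting in both genotypes and Psmb10 did not pass in either. Psmb8, Psmb9 and Psmb10 replace Psmb5, Psmb6 and Psmb7 in the immunoproteasome, which is made in leukocytes and in cells exposed to interferon. Psmb9 had -1.19, -1.25, -1.80 and -1.18 in fasted mFoxO-TKO, -1.48, -1.18, -1.15 and -0.97 in fasted WT, -0.23, -0.20, -0.31 and -0.49 in fed mFoxO-TKO, and -0.32, -0.43, 0.32 and -0.69 in fed WT muscle. All 8 fasted arrays lay below all 8 fed arrays, with overlap between the genotypes. It fell by 1.05 ± 0.20 in mFoxO-TKO (2.07-fold lower, adjusted p = 0.00521) and by 0.91 ± 0.20 in WT (1.88-fold lower, adjusted p = 0.00446). Psmb8 had -1.34, -0.15, -1.04 and -0.09 in fasted mFoxO-TKO, -0.29, -0.12, -0.24 and -0.01 in fasted WT, 0.29, 0.60, 0.59 and 0.38 in fed mFoxO-TKO, and 0.58, 0.52, 1.07 and 0.16 in fed WT muscle. Fasted and fed arrays did not overlap in either genotype, although fasted mFoxO-TKO replicate 1 was not well above background. Psmb8 fell by 1.12 ± 0.25 in mFoxO-TKO (adjusted p = 0.0126, or by 0.89 without fasted replicate 1) and by 0.74 ± 0.25 in WT (adjusted p = 0.0489, lost without any 1 of 11 arrays, 7 of them WT). The WT call of Psmb8 was also lost in 6 of 12 other settings. These were another background correction, quantile normalization, no filter on dim probes, uneven spots kept and each slide alone. Psmb10 had 3.08, 2.76, 2.63 and 2.80 in fasted mFoxO-TKO, 2.45, 2.75, 2.57 and 2.84 in fasted WT, 3.17, 3.05, 3.24 and 3.04 in fed mFoxO-TKO, and 3.05, 2.79, 3.14 and 3.06 in fed WT muscle. Fasted and fed arrays overlapped in each genotype. Its differences of -0.31 ± 0.13 in mFoxO-TKO and -0.36 ± 0.13 in WT did not pass (adjusted p = 0.179 and 0.0703). The interaction, which tests the difference between the fasting effects, was -0.14 ± 0.29 for Psmb9 and -0.37 ± 0.36 for Psmb8 (adjusted p = 0.939 and 0.824).

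Some other transcripts of immune cells also passed on fasting. The summed linear signal of 10 measured leukocyte markers, in units of each array's 75th percentile, ran from 32.8 to 54.9 in fasted mFoxO-TKO, from 33.3 to 42.8 in fasted WT, from 42 to 85.7 in fed mFoxO-TKO and from 34.4 to 62.3 in fed WT muscle, with all 4 groups overlapping. In mFoxO-TKO Adgre1, Cd74 and H2-Aa fell and Itgam rose among them, and in WT Itgam alone passed, upward (0.50 ± 0.13, adjusted p = 0.0106). The share passing was 40% in mFoxO-TKO and 10% in WT, where 8.64% and 21.2% of all genes passed. A dimmer Itgam probe had means of -2.47 in fasted and -2.24 in fed WT, and another had -2.85 and -3.16. The median fasting difference of these markers was -0.86 in mFoxO-TKO and -0.64 in WT. Of the defining markers, Cd79a had no kept probe and Ptprc was well above background on 15 arrays. Among 12 genes of antigen processing, the transporter gene Tap2 and the interferon factor gene Irf1 fell in mFoxO-TKO (-0.61 ± 0.16 and -0.53 ± 0.14, adjusted p = 0.0237 and 0.0277). The peptide-trimming gene Erap1 fell in WT (-0.50 ± 0.16, adjusted p = 0.0386). These are 16.7% of the list in mFoxO-TKO and 8.33% in WT, the second below the share of all genes. Of 5 fibroblast markers, 1 passed as lower in mFoxO-TKO (20%, against 4.03% of all genes) and 3 in WT (60%, against 9.35%). Dcn differed by 0.03 and 0.11 in the same order. The summed signal of the 5 overlapped between fasted and fed arrays. It ran from 193 to 336 in fasted mFoxO-TKO, from 242 to 337 in fasted WT, from 261 to 301 in fed mFoxO-TKO and from 287 to 368 in fed WT. The part of these cells in the fall of Psmb8 and Psmb9 was not tested.

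Activators are alternative caps that open the core without ATPases. None of the 3 measured passed on fasting in either genotype, where limma gave 1 at an unadjusted p under 0.05 in mFoxO-TKO and 2 in WT. Psme1, a subunit of the interferon-inducible PA28 ring, had 4.30, 4.05, 3.67 and 3.58 in fasted mFoxO-TKO, 3.85, 3.98, 3.01 and 3.39 in fasted WT, 4.09, 4.10, 3.89 and 3.81 in fed mFoxO-TKO, and 4.29, 4.02, 4.02 and 3.89 in fed WT muscle. Its changes were -0.07 ± 0.21 in mFoxO-TKO and -0.50 ± 0.21 in WT (adjusted p = 0.876 and 0.109), and on fasted WT replicate 3 its 10 repeat spots spread by 0.53 (SD, log2) beside at most 0.14 on the other arrays. Psme3, the nuclear PA28 gamma, had 2.59, 2.46, 2.66 and 2.84 in fasted mFoxO-TKO, 2.85, 2.73, 2.56 and 2.77 in fasted WT, 3.28, 2.98, 2.73 and 2.87 in fed mFoxO-TKO, and 2.93, 2.70, 2.92 and 2.90 in fed WT muscle. For both genes fasted and fed arrays overlapped in each genotype. Psme3 differed by -0.33 ± 0.14 in mFoxO-TKO and -0.14 ± 0.14 in WT (adjusted p = 0.158 and 0.548). For Psme2, 3 kept probes carry the accession of Psme2b, a near-identical copy, so their signal is of uncertain origin. The brightest of them gave -0.38 ± 0.12 in mFoxO-TKO and -0.35 ± 0.12 in WT, and none of them passed.

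Psme4 was the member that differed by genotype in both feeding states. It encodes PA200, a large single-chain cap. Psme4 had 3.83, 3.46, 3.51 and 3.43 in fasted mFoxO-TKO, 4.79, 4.57, 4.38 and 4.37 in fasted WT, 3.58, 3.26, 3.42 and 3.31 in fed mFoxO-TKO, and 4.16, 4.03, 4.17 and 4.28 in fed WT muscle. At this brightest probe the mFoxO-TKO arrays lay below the WT arrays within each feeding state, and all 8 lay below all 8 WT arrays. It was lower in mFoxO-TKO by 0.97 ± 0.14 in fasted mice (adjusted p = 0.000258, 1.96-fold) and by 0.77 ± 0.14 in fed mice (adjusted p = 0.00991, 1.71-fold). A second probe gave -0.98 ± 0.29 in fasted mice (adjusted p = 0.0441) and -0.76 ± 0.29 in fed mice (adjusted p = 0.347). On that probe fasted mFoxO-TKO replicate 1, at 3.00, lay within the fasted WT range of 2.62 to 3.22, and the fed genotypes were apart. Within slides 1 and 2 the difference was -1.04 and -0.90 in fasted and -0.68 and -0.86 in fed mice. Fasting changed Psme4 by 0.16 ± 0.14 in mFoxO-TKO and 0.37 ± 0.14 in WT (adjusted p = 0.525 and 0.0701), with an interaction of -0.20 ± 0.19 (adjusted p = 0.824).

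**Figure D4:**
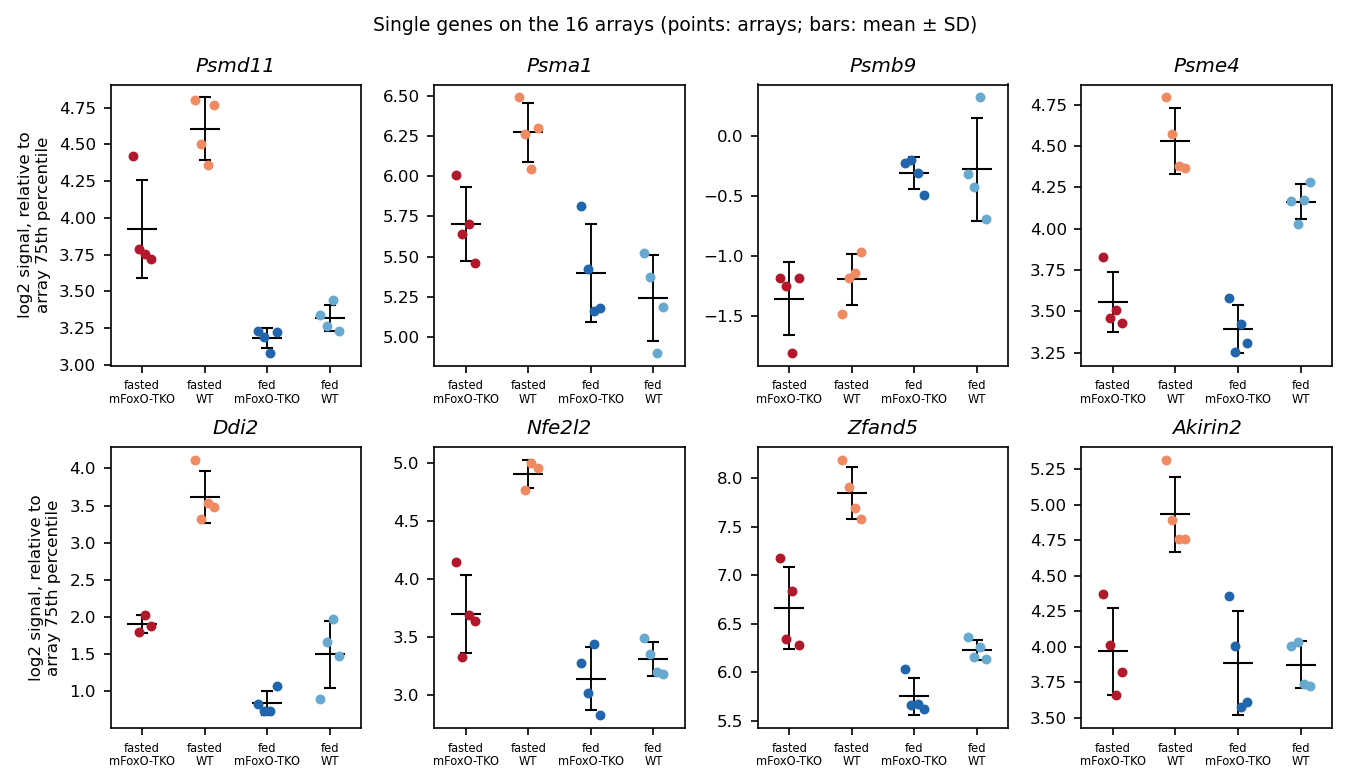
Log2 signal relative to the array's 75th percentile for Psmd11, Psma1, Psmb9 and Psme4 (top) and for Ddi2, Nfe2l2, Zfand5 and Akirin2 (bottom), with 1 point per array and the mean ± SD of each group. Psmd11 in fasted mFoxO-TKO sits at 3.72 to 4.42, against 4.36 to 4.80 in fasted WT, Psmb9 is low in both fasted groups, and Psme4 is low in both mFoxO-TKO groups.

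No assembly gene passed on fasting at its brightest probe. Pomp, which matures the core, and the chaperone genes Psmg1 to Psmg4 had fasting differences from -0.27 to 0.13 in mFoxO-TKO and from -0.37 to 0.25 in WT mice, and 0 of 5 passed in either genotype, with 0 at an unadjusted p under 0.05 in limma. Pomp had 5.63, 5.38, 5.03 and 4.92 in fasted mFoxO-TKO, 5.24, 5.32, 4.77 and 5.02 in fasted WT, 5.44, 5.32, 5.12 and 4.97 in fed mFoxO-TKO, and 5.20, 5.07, 4.95 and 4.92 in fed WT muscle. Its groups overlapped in all comparisons. A second Psmg1 probe ran from 1.31 to 1.72 in fasted mFoxO-TKO, 1.09 to 1.30 in fasted WT, 1.52 to 1.90 in fed mFoxO-TKO and 1.37 to 1.81 in fed WT. On that probe the fasted WT arrays lay below all others.

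The knockout was then compared with WT in each feeding state. In fasted mice 6 of 45 members were lower in mFoxO-TKO and none was higher, where 9.6% of all genes passed (4.99% lower). In fed mice Psme4 alone passed, where 1.01% of all genes passed (0.517% lower). The 6 in fasted mice were Psme4, Psmd11, Psma5, Psmb4, Psmb2 and Psmd3, the last named after its values were seen. Psmd11 differed by -0.69 ± 0.16 in fasted and -0.14 ± 0.16 in fed mice (adjusted p = 0.0106 and 0.97), and Psma5 by -0.68 ± 0.16 and 0.00 ± 0.15. Psmb4 differed by -0.62 ± 0.16 in fasted mice, Psmb2 by -0.57 ± 0.14 and Psmd3 by -0.56 ± 0.13, with adjusted p = 0.0206, 0.0143 and 0.0124. Psma1 differed by -0.57 ± 0.18 in fasted mice without passing (adjusted p = 0.0619), although its arrays did not overlap. The member median was -0.35 in fasted mice, against 0.04 over all genes, and -0.05 in fed mice, against 0.01 over all genes. Negative differences were found for 36 of 45 members in fasted mice (80%, against 45.1% of all genes) and for 25 of 45 in fed mice. Groups did not overlap for 7 members in fasted mice, all lower in mFoxO-TKO (all genes 6.51% lower), and for 2 in fed mice (3.83%). The standard core and cap genes had a median of -0.40 in fasted mice, whereas the assembly genes had 0.26.

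**Figure D5:**
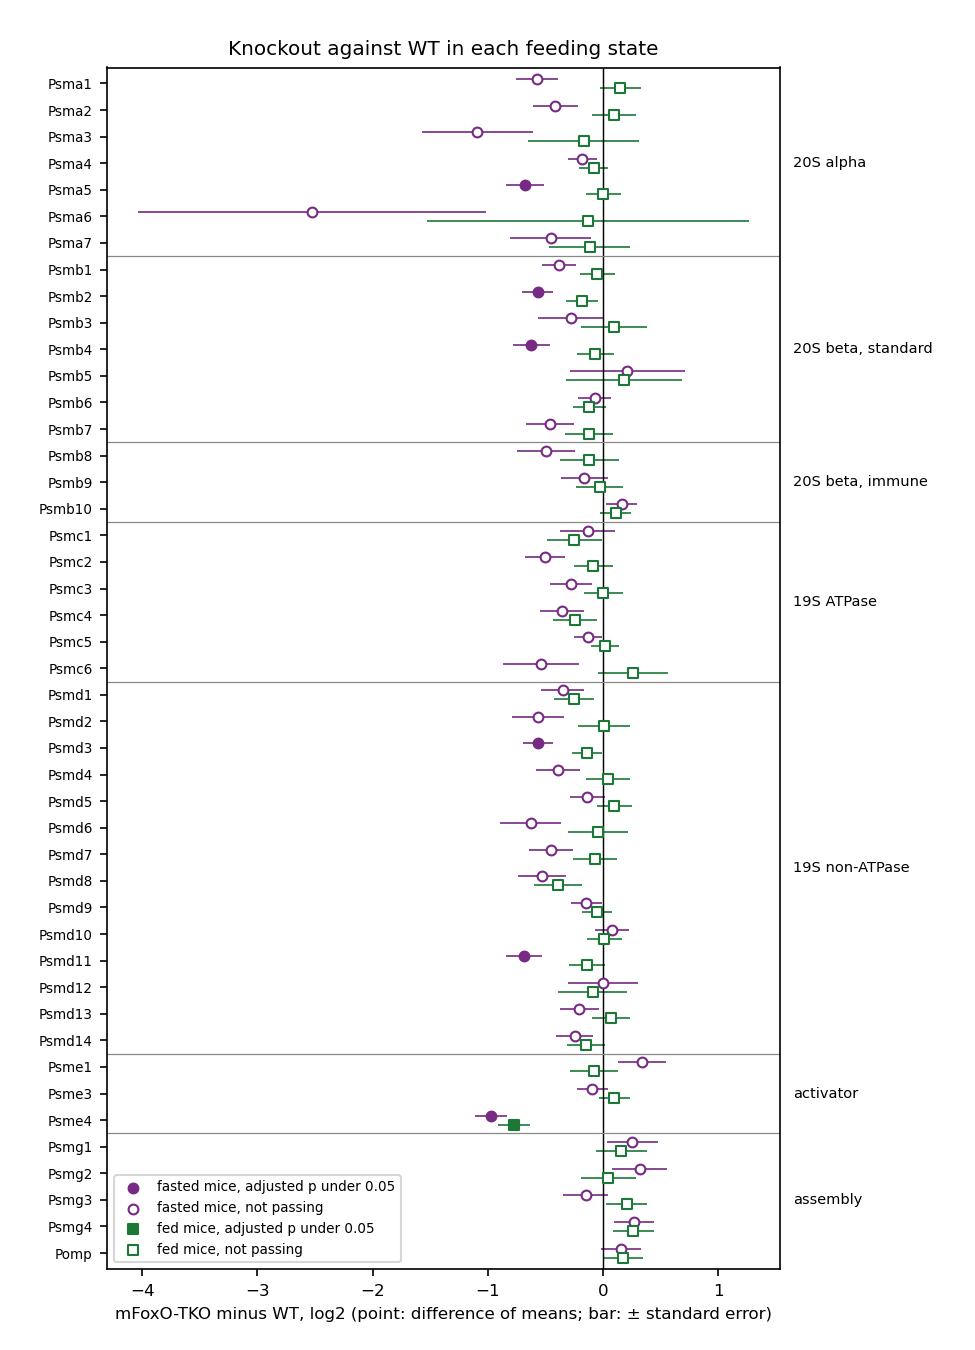
mFoxO-TKO minus WT difference (log2) of each member in fasted (circles) and fed mice (squares), with standard errors, filled where the adjusted p was under 0.05. In fasted mice 36 of 45 circles lie left of 0 and 6 are filled, whereas Psme4 is the filled square in fed mice. The wide bars of Psma6 come with its low value on 1 array.

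The count of 6 in fasted mice moved with single arrays. Without fasted mFoxO-TKO replicate 1 it was 11 members and without fasted mFoxO-TKO replicate 4 it was 3, with the calls of Psma5, Psmb2 and Psmb4 lost. With the authors' scores, which cover 40 of the members, 12 were lower, and with the robust fit 14. With slide as a block 11 members were lower, within slide 1 limma called 0 and within slide 2 it called 5. With the replicate number as a block 13 members passed. Counts over all genes also grew with the robust fit and the replicate block (last section), so these counts alone are not particular to the members. At the brightest probes no member was higher in mFoxO-TKO in either feeding state with the groups apart (all genes 6.42% in fasted and 5.39% in fed mice). A second Psmg1 probe was higher with the groups apart in fasted mice (1.31 to 1.72, against 1.09 to 1.30 in WT).

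The difference between the fasting effects passed for 0 of 45 members in limma, where 1.15% of all genes passed (0.691% with a negative interaction), and 5 members had an unadjusted p under 0.05. The interaction was negative for 35 of 45 members (77.8%, against 47.4% of all genes), with a median of -0.27 against 0.02. It was -0.72 ± 0.26 for Psma1, -0.68 ± 0.22 for Psma5 and -0.55 ± 0.22 for Psmd11 (adjusted p = 0.263, 0.211 and 0.366). A call in WT without one in mFoxO-TKO is therefore not shown by this fit to differ between the genotypes for any 1 member. The interaction of Psmd11 passed without fasted mFoxO-TKO replicate 1 (-0.71, adjusted p = 0.0402). Other settings ended the count of 0: the authors' scores called Psma1 (-0.65, adjusted p = 0.0258), and the robust fit called Psma5, Psmd7 and Psmd11 (-0.58, -0.56 and -0.68, adjusted p = 0.0164, 0.0284 and 0.0156). The replicate number as a block also called Psma1. With slide as a block, 0 members passed, and 0 within each slide.

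Genes that work with the proteasome were read from 3 lists. Of 13 measured partners, 1 rose in mFoxO-TKO (7.69%) and 5 in WT muscle (38.5%). Of all genes tested, 8.64% passed in mFoxO-TKO (4.61% higher) and 21.2% in WT (11.8% higher). Zfand5, an activator of the proteasome in atrophy, had 7.17, 6.35, 6.84 and 6.28 in fasted mFoxO-TKO, 8.19, 7.91, 7.69 and 7.59 in fasted WT, 6.04, 5.67, 5.67 and 5.63 in fed mFoxO-TKO, and 6.36, 6.15, 6.26 and 6.14 in fed WT muscle. The fasted arrays lay above the fed ones in each genotype, and fasted WT above fasted mFoxO-TKO. It rose by 0.91 ± 0.19 in mFoxO-TKO (adjusted p = 0.00885) and by 1.62 ± 0.19 in WT (adjusted p = 3.72e-05), and was lower in mFoxO-TKO by 1.19 ± 0.19 in fasted mice (adjusted p = 0.00095). Akirin2, which carries proteasomes into the nucleus, had 4.37, 4.01, 3.66 and 3.82 in fasted mFoxO-TKO, 5.32, 4.90, 4.76 and 4.76 in fasted WT, 4.36, 4.00, 3.57 and 3.61 in fed mFoxO-TKO, and 4.00, 4.03, 3.74 and 3.72 in fed WT muscle. The fasted WT arrays were above the other 12. It changed by 0.08 ± 0.20 in mFoxO-TKO and 1.06 ± 0.20 in WT (adjusted p = 0.857 and 0.00144), with an interaction of -0.98 ± 0.28 that did not pass (adjusted p = 0.132). The thioredoxin-like cap partner Txnl1 and the cap deubiquitinase Usp14 differed by 0.50 ± 0.15 and 0.33 ± 0.17 in mFoxO-TKO without passing, and rose by 1.1 ± 0.15 and 0.89 ± 0.17 in WT. A second probe of Usp14 passed in mFoxO-TKO at 0.62 ± 0.14 (adjusted p = 0.0128).

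Of 12 measured regulators of proteasome genes, 3 rose in mFoxO-TKO (25%, against 4.61% of all genes) and 7 in WT muscle (58.3%, against 11.8%). In fasted mice 5 were lower in mFoxO-TKO (41.7%, against 4.99%). Ddi2, the protease that activates Nrf1, had 1.81, 2.03 and 1.87 in fasted mFoxO-TKO, 4.12, 3.32, 3.54 and 3.48 in fasted WT, 0.83, 0.73, 0.74 and 1.08 in fed mFoxO-TKO, and 0.90, 1.66, 1.98 and 1.47 in fed WT muscle, with replicate 1 of fasted mFoxO-TKO left out as uneven. The fasted WT arrays were above all others. Ddi2 rose by 1.06 ± 0.23 in mFoxO-TKO (adjusted p = 0.0115) and by 2.11 ± 0.22 in WT (adjusted p = 1.41e-05). Nfe2l2, which encodes Nrf2, changed by 0.56 ± 0.18 in mFoxO-TKO (adjusted p = 0.0671) and by 1.61 ± 0.19 in WT (adjusted p = 5.03e-05, n = 3 in fasted WT). Nfe2l1, which encodes Nrf1 and is named here after its values were seen, changed by 0.58 ± 0.19 and 0.92 ± 0.19 in the same order (adjusted p = 0.0796 and 0.00315). The small Maf genes Maff and Mafk rose in both genotypes, with interactions of -2.23 ± 0.37 and -1.39 ± 0.28 that passed (adjusted p = 0.00717 and 0.0224). Of 13 genes for shuttles and the p97 unfoldase, 1 rose in mFoxO-TKO (7.69%, against 4.61% of all genes) and 6 in WT (46.2%, against 11.8%). Ddi2 is on this list too. The p97 cofactor gene Faf2 changed by -0.06 ± 0.17 in mFoxO-TKO and 1.14 ± 0.17 in WT, with an interaction of -1.21 ± 0.25 (adjusted p = 0.0264), although a second probe gave 0.33 and 0.64. Vcp, which encodes p97 itself, differed by 0.36 ± 0.24 in mFoxO-TKO and 0.44 ± 0.24 in WT without passing.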

How the data were processed

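RNA from 16 quadriceps samples was labelled with Cy3 and hybridised to 1-colour Agilent mouse arrays. The deposited signal is a spot intensity, background-subtracted and detrended within each array by Feature Extraction 11.0.1.1, per the file headers, whereas the submitters' processing notes name version 9.5. The authors' value table holds a score per spot that is linear, set so that the 75th percentile of each array is 100 and rounded to whole numbers, as found from its values. It agrees within 1.11% with multiples of the deposited intensity for scores of 50 or more. It holds 18324 spots, where the arrays hold 59305 non-control spots, and covers 40 of the 45 tested members after the filter. The files use another genome build than the RefSeq tables, so gene coordinates were not taken from them.

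Of 55681 probes, 28331 were given a gene symbol through their RefSeq accession. The log2 of the deposited intensity minus the array's 75th percentile was used. Control spots and spots marked as uneven were left out, repeat spots were averaged, and 28570 probes were kept, each above background in all 4 arrays of 1 or more groups. The brightest kept probe stood for a gene, which gave 21281 genes, 14148 of them with a symbol. Each probe target without a symbol was counted as 1 gene. Every share or median over all genes includes these targets. limma 3.58.1 in R 4.3.3 fitted the 4 group means on 16 arrays (12 residual degrees of freedom), and p-values were adjusted by Benjamini-Hochberg over all genes, with a threshold of 0.05. The fit was tested on simulated data. Between 45.0% and 75.2% of spots per array were well above background and no spot was saturated, and the number of arrays limits the precision.

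The alternatives were another background correction, 2 other normalizations, other filters on dim and uneven spots, the mean of a gene's probes, slide as a block or alone, the replicate number as a block, leaving out each array, the authors' scores as log2(score + 1), and a robust fit added after seeing the data. The planned background correction called for a mean signal and was run on the median signal, which the files hold. Members and lists were chosen with earlier results of these data known. Named with per-array values were the catalytic and immune subunits, the activators, up to 3 passing members per class on fasting in WT, members passing in other comparisons (4 for the knockout in fasted mice), and up to 4 passing genes per list. The planned comparison of protein sequences was not run.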

Additional observations from a re-analysis of the deposited data

Results flagged for a closer look

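Within the groups of 4 arrays, 15 of 174 member-by-group sets (8.62%) had 1 array whose gap to its nearest neighbour passed Dixon's 95% limit for its group, where chance gives about 1 in 20. In 10 of the 15 the array was the lowest of its group, 5 of the 15 were on fasted mFoxO-TKO replicate 1, and 7 had a gap over 0.5 on the log2 scale. On fasted mFoxO-TKO replicate 1, Psma6 was at -3.80 (next array 4.68), Psma7 at 4.20 (5.40), Psmb7 at 4.09 (5.11) and Psmd6 at 3.96 (5.23), each the lowest of its group, while Psmd11 was the highest at 4.42 (3.79). Psmb5 was lowest on fed WT replicate 3 at 5.34 (7.14). Psmb9 was lowest on fasted mFoxO-TKO replicate 3 at -1.80 (-1.25). Psmd13 and Psmd5 were lowest on fasted WT replicate 3, at 3.99 (4.45) and 1.45 (1.69). On fed mFoxO-TKO replicate 1, Psmd6 was highest at 5.64 (5.19) and Psmg3 highest at 2.36 (1.94). In fed WT, Psma4 was lowest on replicate 2 at 4.18 (4.44) and Psme3 lowest on replicate 2 at 2.70 (2.90), whereas Psmb7 was highest on replicate 3 at 5.29 (5.07) and Psmd3 highest on replicate 1 at 6.17 (6.0).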

How the results depend on the processing

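Over the named genes and comparisons, 2983 alternative values kept their direction and side of the threshold, 89 lost the call and 98 gained one, and none of the results changed direction past the threshold. The counts moved more. Of all genes tested, 1838 passed on fasting in mFoxO-TKO, 4505 on fasting in WT, 2042 for the knockout in fasted mice, 216 for the knockout in fed mice and 244 for the interaction of knockout and fasting. Leaving out 1 array at a time gave 1106 to 2127, 3508 to 5518, 1566 to 2331, 107 to 318 and 134 to 439 genes in that order, with 3 to 5, 11 to 20, 3 to 11, 1 and 0 to 1 members. With normexp, 1195 genes passed on fasting in mFoxO-TKO and 128 for the knockout in fed mice. With quantile normalization the genes were 2758 (5 members) on fasting in mFoxO-TKO, 348 for the knockout in fed mice and 515 for the interaction, with 11 members for the knockout in fasted mice. With the percentile over probes above background on all arrays, 6 members passed on fasting in mFoxO-TKO, 3298 genes (10 members) for the knockout in fasted mice, 374 in fed mice and 518 for the interaction, and the median of all genes on fasting in WT moved to -0.11, with the members 0.33 above it (0.29 with the percentile over all probes). Without the filter on dim probes the counts were 1034 on fasting in mFoxO-TKO, 113 for the knockout in fed mice and 78 for the interaction, and the members lay 0.07 above the all-gene median of 0.25 on fasting in WT. With uneven spots kept, 450 genes passed the interaction, and with the mean of a gene's probes 0 members passed for the knockout in fed mice, where 1 passed in limma at the brightest probe. With slide as a block, 2826 genes (7 members) passed on fasting in mFoxO-TKO, 23 members on fasting in WT, 11 members for the knockout in fasted mice, 408 genes for it in fed mice and 508 for the interaction. Within slide 1 the counts were 116 (0 members) on fasting in mFoxO-TKO, 848 (1 member) on fasting in WT, 412 (0 members) for the knockout in fasted mice and 6 for the interaction, with 0 members for the knockout in fed mice. Within slide 2, 0 members passed on fasting in mFoxO-TKO and 0 for the knockout in fed mice (33 genes), and 102 genes passed the interaction. The authors' scores cover 40 of the members. With the authors' scores, 12 members passed on fasting in mFoxO-TKO, 12 for the knockout in fasted mice, 367 genes for it in fed mice, and 708 genes and 1 member (Psma1) for the interaction. With the robust fit, chosen after seeing the data, the counts were 4244 (10 members) on fasting in mFoxO-TKO, 7111 (29 members) on fasting in WT, 3954 (14 members) for the knockout in fasted mice, 1060 in fed mice and 1301 for the interaction, with 3 members (Psma5, Psmd7 and Psmd11). The replicate number entered as an alternative and not in the main fit. Deviations from group means correlated at 0.0639 to 0.367 (median 0.182, 24 pairs) between same-numbered arrays, which share a slide. Arrays of different numbers on the same slide had a median of 0.0979 (24 pairs), and arrays on different slides lay between -0.352 and -0.0353 (48 pairs). Of 16 arrays, 13 correlated best with an array of their own number. Slide and number thus carry shared variation that the main fit leaves out. With the replicate block, 3296 genes (11 members) passed on fasting in mFoxO-TKO, 23 members on fasting in WT, 3354 genes (13 members) for the knockout in fasted mice, 401 for it in fed mice, and 652 genes and 1 member (Psma1) for the interaction. The cause of these shifts was not tested, and the settings within 1 slide use 8 arrays.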
